A study of Mus musculus with 7 samples.

Results

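This section describes where the transcription factor IRF4, and the NF-κB subunit RelA (p65), were mapped around Irf4, Batf and Prdm1 in mouse regulatory T (Treg) cells. The measurements are chromatin immunoprecipitation sequencing (ChIP-seq) peak summits, the single bases at which read pile-ups are highest. The 3 loci were selected on their IRF4 summits in these same lists, so the counts and scores below are a description and were not tested. The members are all summits inside 3 fixed windows of the mm9 build, chr13:30740000-30960000 for Irf4, chr12:86950000-87120000 for Batf and chr10:44050000-44290000 for Prdm1. They number 29 of the 10739 summits in the 3 lists, with 16 of 5630 from IRF4 in WT cells, 12 of 4312 from IRF4 in p65KO cells and 1 of 797 from p65 in WT cells.

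Cells came from spleens of C57BL/6 mice. WT Treg cells (3 IRF4 samples) and RelA-deficient Treg cells, labelled p65KO (2 IRF4 samples), were stimulated through CD3 and CD28 for 48 h. WT cells for p65 (2 samples) received PMA with ionomycin for 30 min, so p65 was not mapped in the state in which IRF4 was. The sources used here do not state how RelA was removed, how old the mice were or whether animals were pooled. Each group is 1 list, with no value per sample, and no replicate error can be given. A score is the authors' −log10 significance of a peak. It depends on read depth, which the lists do not hold, and per the peak names no input library was used. Summits are listed past q = 1e-06 for IRF4 and q = 0.05 for p65, and a site that is not listed may still be bound below these limits.

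IRF4 is induced by antigen receptor signalling in proportion to its strength and is required for Treg cells to become effector Treg cells. It binds DNA weakly by itself and is usually found with a partner, often BATF and a JUN protein on composite elements that join an AP-1 and an IRF half-site. BATF, a basic leucine zipper protein without an activation domain of its own, also supports effector Treg cells in tissues. Prdm1 encodes BLIMP-1, a zinc finger repressor that marks effector Treg cells and is needed for much of their IL-10, and its DNA motif resembles that of IRF proteins. RelA is the main activating subunit of canonical NF-κB, which antigen receptor, CD28 and TNF receptor family signals engage.

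To show the genes' own start regions next to the binding data, the 250 bases upstream of each annotated start are given from RefSeq, GRCm38.p6, 5′ to 3′ on the gene's strand, with motif matches in capitals. All 3 genes were found in that table. Summits carry mm9 positions, so whether any of them falls in these sequences was not determined.
Irf4: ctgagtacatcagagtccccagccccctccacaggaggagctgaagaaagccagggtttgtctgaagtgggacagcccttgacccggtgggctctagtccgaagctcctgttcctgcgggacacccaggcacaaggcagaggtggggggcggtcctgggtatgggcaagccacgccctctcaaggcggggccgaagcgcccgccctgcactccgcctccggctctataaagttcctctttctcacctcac
Batf: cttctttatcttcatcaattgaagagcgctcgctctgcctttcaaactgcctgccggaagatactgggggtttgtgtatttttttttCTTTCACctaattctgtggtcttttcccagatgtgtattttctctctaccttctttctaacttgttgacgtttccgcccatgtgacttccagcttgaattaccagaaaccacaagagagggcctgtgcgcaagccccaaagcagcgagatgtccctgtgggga
Prdm1: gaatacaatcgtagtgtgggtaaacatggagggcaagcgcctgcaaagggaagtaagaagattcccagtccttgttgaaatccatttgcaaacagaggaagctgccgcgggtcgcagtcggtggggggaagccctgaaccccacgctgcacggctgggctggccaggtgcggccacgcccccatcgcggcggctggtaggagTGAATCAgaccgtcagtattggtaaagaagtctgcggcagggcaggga

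Motifs were searched on both strands of these and of all 32851 promoters of the same length. The IRF element (GAAA followed 2 bases later by GAAA) was in 2.98% of all promoters, the ETS-IRF element (GGAA followed 2 bases later by GAAA) in 2.30%, and neither was in the 3. Nor did the 3 hold the AP-1-IRF composite, written as GAAA joined to TGANTCA (0.100% of promoters) or as TGANTCA followed 4 bases later by GAAA (0.0974%). Each composite contains the AP-1 motif itself, TGANTCA, which was in 6.75% of promoters and in that of Prdm1, at 48 to 42 bases upstream and reading as a match on both strands. The NF-κB motif was absent from the 3 as GGGA followed 1 base later by TTTCC (0.356%) and in the looser form that includes it, GGG followed 3 bases later by TTCC (4.65%). The BLIMP-1 core GTGAAAG was in 3.57% of promoters and in that of Batf, on the reverse strand at 163 to 157 bases upstream. A match is a string of letters and no match says only that the letters are not in this window.

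IRF4 summits were found in all 3 windows in both genotypes. The Irf4 window held 5 in WT and 5 in p65KO, the Batf window 2 and 2, and the Prdm1 window 9 and 5. To read these counts, the placed chromosomes were cut into tiles as wide as each window. Of 220 kb tiles, 1.31% held at least 5 WT and 0.791% at least 5 p65KO summits. Of 170 kb tiles, 8.54% held at least 2 WT and 6.31% at least 2 p65KO summits, so the Batf count was the least unusual. Of 240 kb tiles, 0.150% (16 of 10655) held at least 9 WT and 0.835% at least 5 p65KO summits. Since the windows were chosen for their binding, these shares describe them and support nothing. The counts also depend on list length, which is 5630 in WT and 4312 in p65KO. Prdm1 summits ranked 4324, 4464, 4832, 4977 and 5290 in WT lie beyond the length of the p65KO list. With the IRF4 lists cut to equal length by score, the 3 windows together held 11 WT and 12 p65KO summits.

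**Figure D1:**
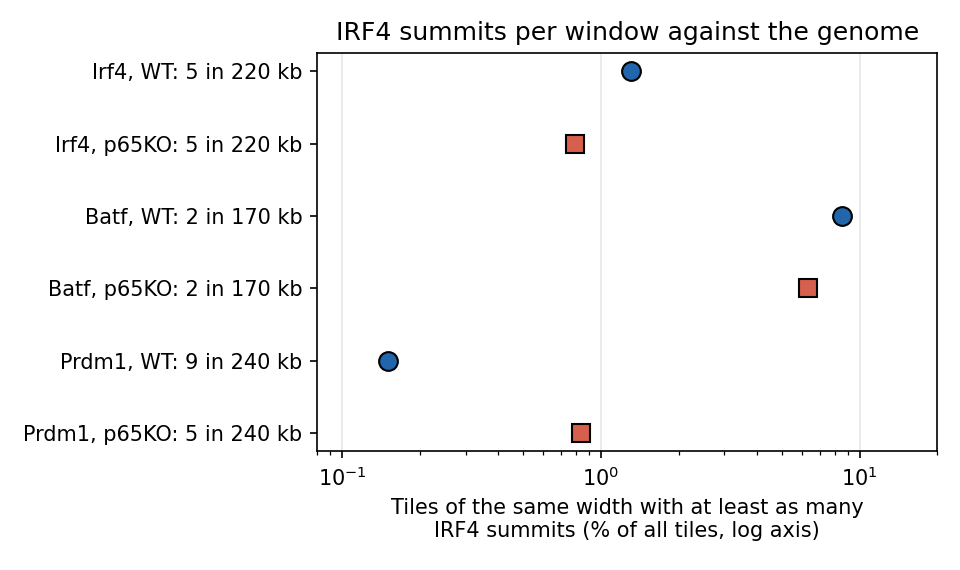
Share of all tiles of the same width (x axis, percent, log scale) with at least as many IRF4 summits as each window, WT as blue circles and p65KO as red squares. Prdm1 in WT lies at 0.150% and Batf in WT at 8.54%.

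Summits inside a window are not thereby assigned to the gene that names it. On GRCm38.p6 the neighbouring protein-coding genes are Dusp22 and Exoc2 for Irf4, Jdp2 and Flvcr2 for Batf, and Atg5 and Prep for Prdm1. Jdp2 encodes another AP-1 family protein. Exons, introns and distances to start sites were not assigned here, because no mm9 annotation was used.

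Prdm1 had the strongest IRF4 site of the 3 loci. At chromosome 10, position 44164415, the WT score was 223, rank 14 of 5630, and the p65KO summit 3 bp away scored 246, rank 9 of 4312. This was the only summit of the 3 windows among the highest 1% of either list by rank. It scored higher by 23.5 without RelA, a gain equalled or passed by 4.63% of all 3625 IRF4 pairs of the 2 genotypes.

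The other strong Prdm1 sites scored lower in p65KO cells. At 44100887 the WT score was 109.7 (rank 232) and the p65KO score 43.0 (rank 1153), a difference of −66.6. Of the 3625 pairs, 14 (0.386%) fell at least as far. Most pairs could not, because no listed p65KO score is below 7.50, so a fall this large needs a high WT score. The highest 10% of WT scores began at 74.3, and the 14 are 2.50% of the 560 pairs in that group. At 44152225, 12.2 kb from the strongest site, the scores were 91.7 (rank 368) and 58.0 (rank 741). That difference of −33.6 was reached by 4.83% of all pairs and by 21.4% of those with a WT score in the highest 10%.

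The remaining Prdm1 summits were weak. One of them, 44080737, had a p65KO summit 12 bp away and scored 15.3 in WT against 26.6 in p65KO. Another, 44140313 (score 13.1), had its nearest p65KO summit (16.0) 489 bp away and so counted as unmatched in both lists. A further 4 WT summits had no p65KO summit within 1 kb, namely 44086981 (17.5), 44095598 (17.0), 44120573 (14.5) and 44252550 (18.3). All 4 scored below the WT list's median of 26.3, and their ranks lay between 4143 and 4977 of 5630. At Prdm1 the WT summits without a p65KO partner were thus all low-scoring ones.

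Prdm1 was also the one locus of the 3 with clustered summits in the WT list. Clusters were groups of at least 3 WT summits with gaps of at most 12.5 kb, of which the list had 151 with 550 summits (9.77%). One ran from 44080737 to 44100887 with 4 WT summits over 20.1 kb, and 44 clusters had as many or more. Another ran from 44140313 to 44164415 with 3 over 24.1 kb, the fewest that make a cluster. Each had 2 p65KO summits inside or within 200 bp, and clusters were not called in the p65KO list. Both rest in part on weak summits near the end of the longer WT list. In the first, 44080737, 44086981 and 44095598 ranked 4832, 4324 and 4464, and in the second 44140313 ranked 5290. The p65KO list has only 4312 summits. None of the 7 WT summits in these clusters was still clustered with gaps of at most 5 kb, and with 25 kb 8 were.

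**Figure D2:**
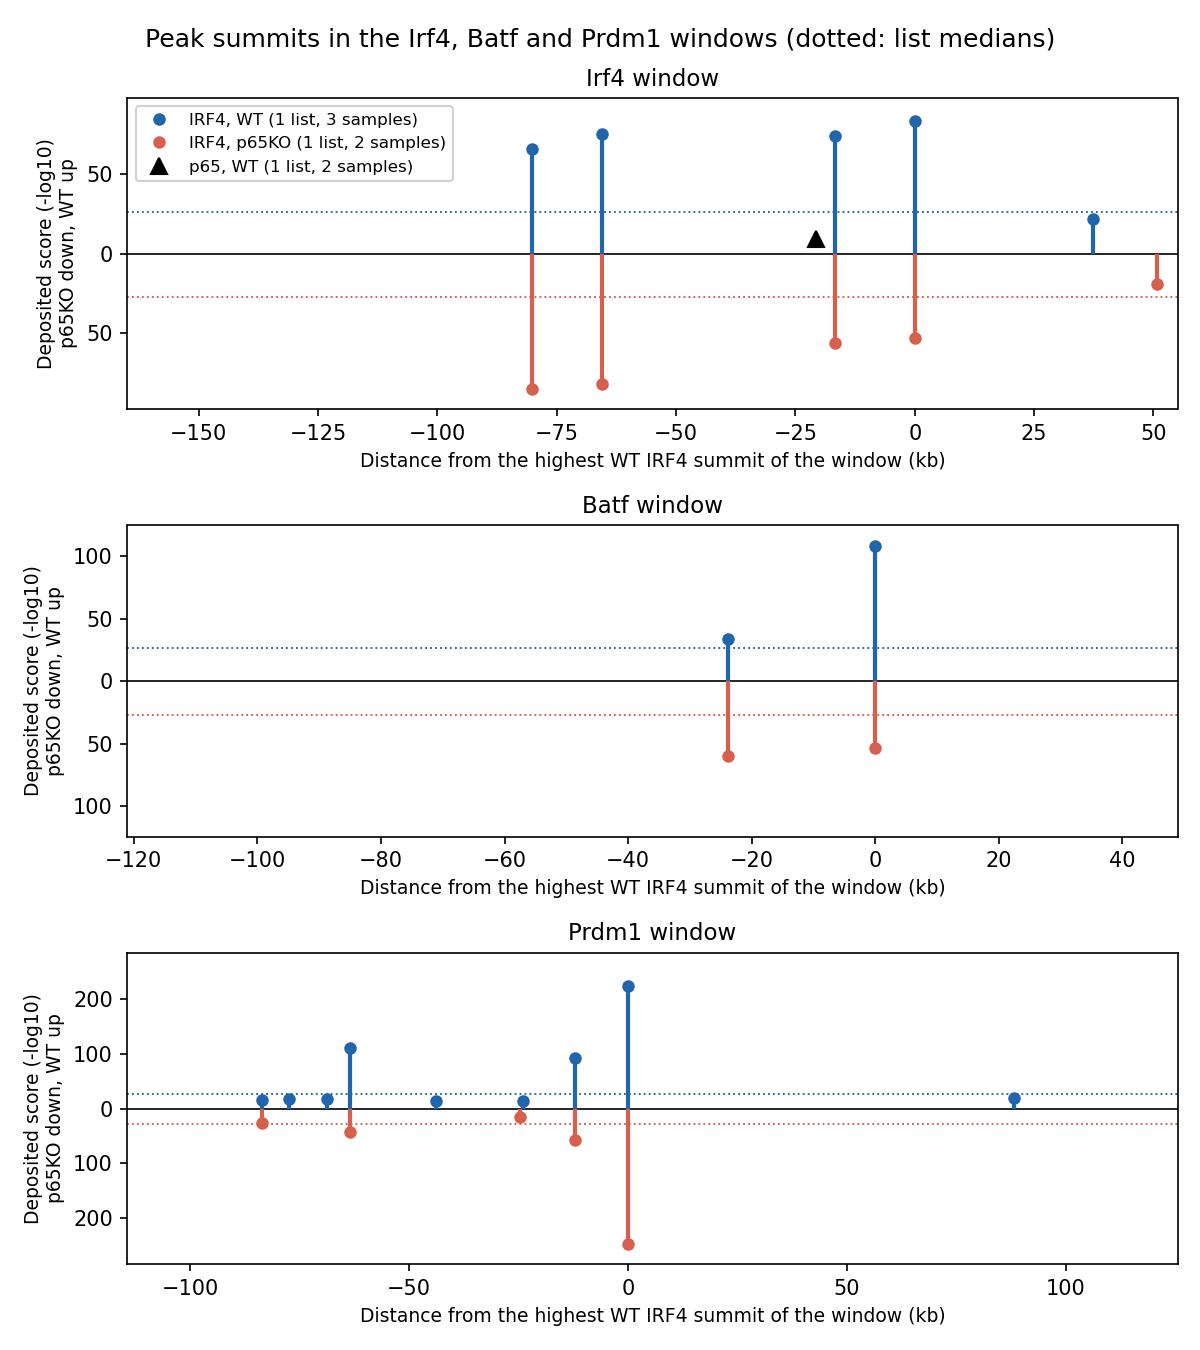
Deposited scores (y axis, −log10) of all member summits by distance in kb from the window's highest WT IRF4 summit, WT pointing up in blue, p65KO pointing down in red, p65 as a black triangle, list medians dotted. The 2 left-hand Irf4 sites are taller in p65KO and the next 2 taller in WT, and the only triangle lies at Irf4.

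The Irf4 window, around the gene of the precipitated factor itself, had 4 sites of similar strength in place of a single dominant one. Their WT scores were 66.1, 75.4, 74.3 and 83.4 at 30824739, 30839487, 30888166 and 30904957 on chromosome 13. The p65KO scores at the same sites were 85.4, 82.1, 56.2 and 53.1, with offsets of 3 to 9 bp. Both sites at lower coordinates, 14.7 kb apart, therefore scored higher in p65KO and both at higher coordinates, 16.8 kb apart, scored lower.

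The highest site of the window changed accordingly. In WT it was 30904957 (rank 453 of 5630), which ranked 854 of 4312 in p65KO, a difference of −30.3 that 6.32% of all pairs reached and 23.8% of those with a WT score in the highest 10%. In p65KO it was 30824748 (rank 367), whose WT partner ranked 708 and whose gain of 19.2 was reached by 7.14% of pairs. The other differences were 6.72 at 30839487 and −18.1 at 30888166, reached by 22.9% and 15.8% of pairs in their direction, and by 26.2% and 40.0% of those with a WT score in the highest 10%. Each genotype had in addition 1 weak summit without a partner. They were 30942208 in WT (21.8, rank 3508) and 30955793 in p65KO (19.2, rank 3141), 13.6 kb apart.

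The Batf window had 2 sites, 23.8 kb apart on chromosome 12, and their order reversed between the genotypes. At 87071059 the WT score was 108 (rank 241) and the p65KO score, 24 bp away, 53.4 (rank 847). The difference of −54.8 was reached by 38 of all pairs (1.05%), or 6.79% of those with a WT score in the highest 10%. A fall of this size, too, is open only to pairs with a high WT score. At 87047303 the WT score was 33.9 (rank 2044) and the p65KO score 60.3 (rank 690). That gain of 26.4 was the largest of the member pairs in score, though not in list percentile, where Prdm1 44080737 gained 34.0 points against 20.3 here. It was reached by 3.64% of all pairs. In WT the sites differed by a wide margin, and in p65KO they scored nearly alike.

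**Figure D3:**
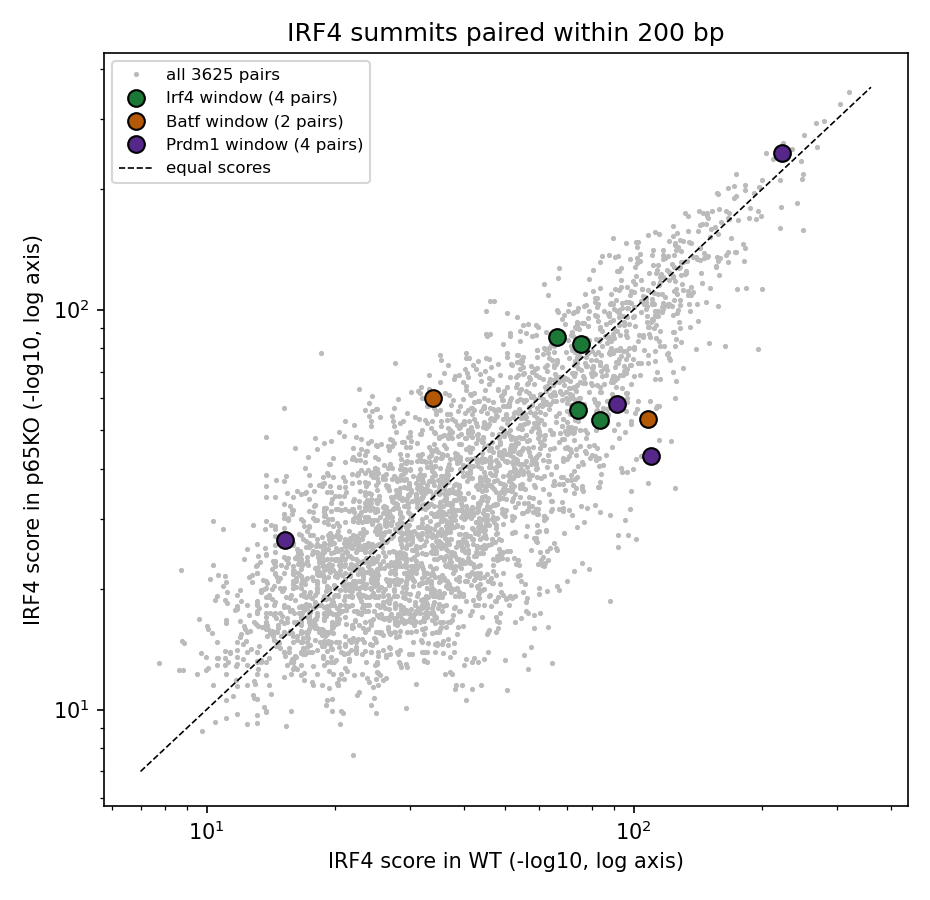
IRF4 score in p65KO (y) against WT (x), both −log10 on log axes, for all 3625 pairs within 200 bp (grey) and the member pairs (coloured by window), with the line of equal scores dashed. Of the 10 member pairs, 5 lie above the line and 5 below, the farthest below being the Prdm1 site at 109.7 and 43.0.

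Across the 3 windows, 10 of 16 WT summits (62.5%, exact 95% interval 35.4 to 84.8, counting error over summits only) were paired with a p65KO summit, against 64.4% of the whole WT list. In the other direction 10 of 12 p65KO summits (83.3%, 51.6 to 97.9) were paired, against 84.1% of that list. Both shares were near those of the lists. Pairing followed score: all 9 member WT summits above the list median were paired, against 86.7% of such summits in the list, and 1 of the 7 at or below it, against 42.0%. Likewise all 9 member p65KO summits above their list's median of 27.3 were paired, against 96.6% of such summits in the list, and 1 of the 3 below, against 71.5%.

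Scores moved in both directions. The p65KO score was the lower one in 5 of the 10 member pairs and in 57.8% of all pairs, and the median difference was −5.70 at the members and −2.57 over all pairs (quartiles −12.8 and 5.97). Picking sites by their score in one genotype tilts this split. Of pairs with a WT score in the highest 10%, 65.9% were lower in p65KO, and of the 7 such member pairs 5 were. Of pairs with a p65KO score in the highest 10%, 41.2% were lower in p65KO, and of the 3 such member pairs none was. With no values per sample, whether any of these differences exceeds the spread between samples was not tested. Paired summits lay close together, with a median offset of 6.50 bp at the members (3 to 26 bp) and 17.0 bp over all pairs.

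**Figure D4:**
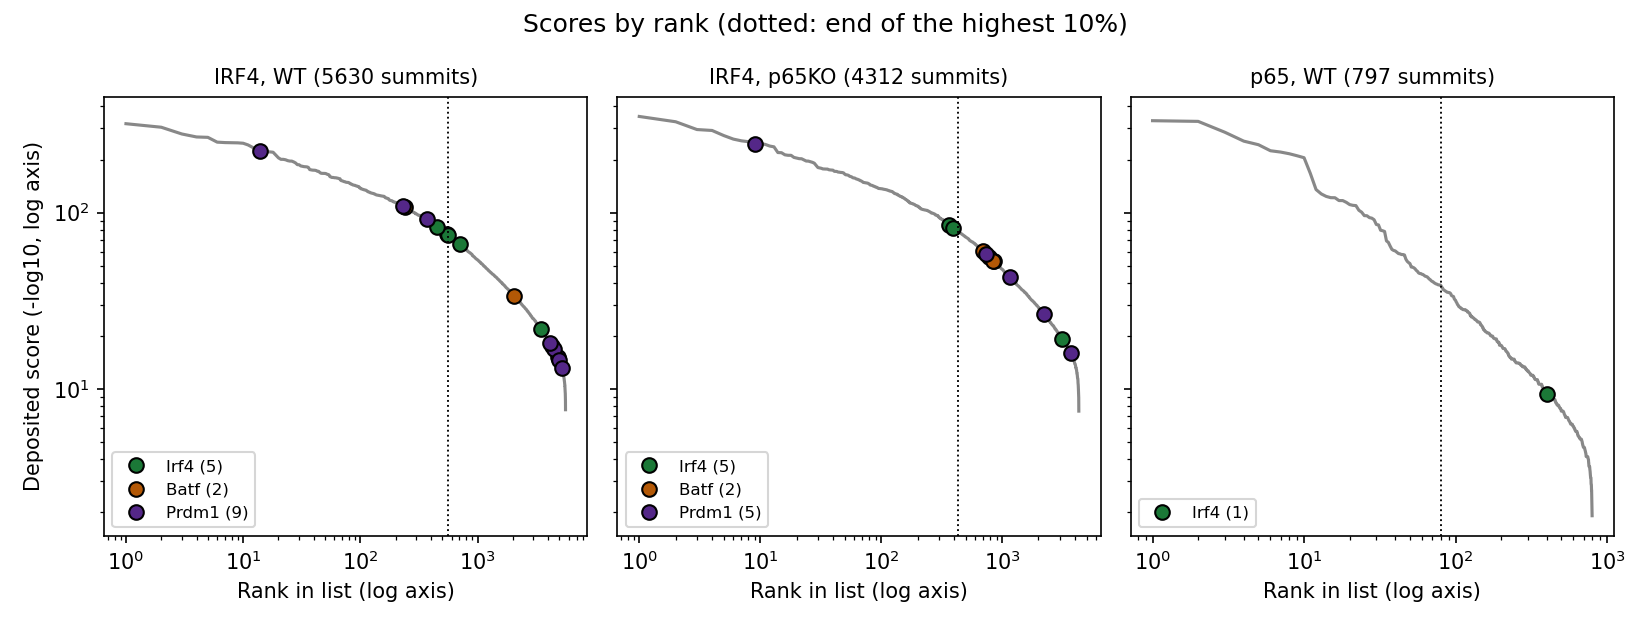
Score (y, −log10, log axis) against rank (x, log axis) for each whole list in grey with the member summits coloured by window, and the end of the highest 10% dotted. In WT 7 member summits lie left of the dotted line, in p65KO 3, and the single p65 summit lies at rank 404 of 797.

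Among the 16 WT member summits, 7 stood in the highest 10% of their list (scores from 74.3), 3 at Irf4, 1 at Batf and 3 at Prdm1. Among the 12 in p65KO, 3 did (scores from 78.5), 2 at Irf4 and 1 at Prdm1. Of the 7 strong WT sites, 2 were also in the highest 10% of p65KO, Irf4 30839487 and Prdm1 44164415, where 366 of the 563 highest WT summits of the whole list (65%) were. This comparison was made after the values were seen, and with 7 sites it does not set the loci apart.

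The p65 list touched 1 of the 3 loci. Its summit at chromosome 13, position 30884345, in the Irf4 window had a score of 9.35 and rank 404, close to the list's median of 9.61. It lay 3.82 kb from the IRF4 summits at 30888166 in WT and 30888161 in p65KO, the pair with scores of 74.3 and 56.2. Of 220 kb tiles, 2.58% held a p65 summit.

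No IRF4 summit of the 3 windows had a p65 summit within 200 bp, in either genotype, where 4.00% of all WT and 4.15% of all p65KO IRF4 summits did. Within 10 kb, 1 of 16 WT and 1 of 12 p65KO member summits had one, against 5.81% and 5.22% of the lists. At shares this low, a count of 0 or 1 among so few summits does not set the loci apart. The p65 list is also uneven, with up to 36 summits in a 220 kb tile against a mean of 0.0520. The list shares were not corrected for such crowding. The nearest p65 summit to the highest WT site at Batf was 283 kb away and had a score of 2.22, rank 796 of 797. From the strongest Prdm1 site the nearest was 11.2 Mb away, with a score of 11.3. Of the 10 member pairs, whether lower or higher in p65KO, only that at Irf4 30888166 had a listed p65 summit within 10 kb. It scored lower in p65KO, but a single pair does not relate p65 to either direction. Whether RelA bound any of the 10 sites in the 48 h cells was not tested.

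The window edges matter for Irf4 and Batf. The first IRF4 summits outside the Irf4 window were 30737020 in WT (24.6) and 30737006 in p65KO (20.7), 2.98 kb and 2.99 kb below it, and 30971149 in WT (14.6) and 30972403 in p65KO (44.0) above it. The WT partner of the latter was the next summit out, 30972420, with a score of 56.9. The first inside were 30824739 and 30824748 at the lower edge and 30942208 and 30955793 at the upper one. For Batf the first outside on the lower side was a strong pair, 86934133 in WT (106, rank 252) and 86934150 in p65KO (103, rank 233), 15.9 kb and 15.8 kb from the edge, and the first inside was the pair at 87047303. On the upper side lay 87204750 in WT (17.4) and 88022752 in p65KO (13.1), beyond the pair at 87071059. Around Prdm1 the nearest outside summits were 331 kb below the window and 134 kb above it in WT, with scores of 21.5 and 43.2, and 629.9 kb and 134 kb in p65KO (40.0 and 28.7). The outermost summits inside were 44080737 and 44252550 in WT and 44080725 and 44164412 in p65KO.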

How the data were processed

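The authors deposited 3 summit lists, 1 per group, which carry a −log10 score for each peak. The sources used here do not state whether it is taken of a p-value or a q-value. MACS2 2.1.0, Subread, featureCounts and the build mm9 are named in the submitters' processing notes, without settings. The q limits were read from the deposited lists' names, and No-Input from the peak names. The sources used here state neither how samples were combined nor their depth, so precision per site is unknown.

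Positions are 1-based. IRF4 summits of the 2 genotypes were paired as mutual nearest neighbours within 200 bp. The matching was run on simulated summits, spread at random and with planted offsets below that limit. This checks the code only and does not show how matching performs where summits are crowded. Ranks and percentiles are within a list. Tiles ran from the first to the last summit of each placed chromosome. With 1 list per group no test was made. Named are the summits in the highest 10% of a list, p65 summits, IRF4 summits without the other genotype within 1 kb, the extreme pairs and those at the window edges. The other member summits were named after their values were seen, so that all are accounted for. Members, windows and lists were chosen with earlier results of these data known. Lists of other effector Treg genes and motifs at summits, both planned, were not run, for lack of an mm9 genome and annotation. The work used matplotlib 3.10.9, pandas 2.3.3, scipy 1.17.1 and numpy 2.4.6 under Python 3.11.15.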

Additional observations from a re-analysis of the deposited data

How the results depend on the processing

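Windows of double width held 26 WT and 19 p65KO IRF4 summits, and windows narrowed to their middle 50% held 10 WT and 9 p65KO. Above each list's median score, 9 WT and 9 p65KO summits were left, and the paired share was 100% in both directions. Other settings were matching within 100 bp, 500 bp or 1 kb, IRF4 lists of equal length, and other window edges. With these the paired share ran from 62.5% to 81.8% of WT and from 75.0% to 91.7% of p65KO summits. The main intervals, 35.4 to 84.8 and 51.6 to 97.9, hold these shares but are too wide to show stability. The 100% above the list medians lay outside both, as any share of 100% must, since their upper limits are below it. The intervals also count neighbouring summits as independent, so they do not measure robustness. The list medians, 26.3 in WT and 27.3 in p65KO, are so close that dividing by them could not reverse any member pair. That setting is therefore no check on depth. All 10 member pairs kept their direction when scores were divided by the list median or replaced by percentiles. Their sizes did not all hold: in percentiles of the list the gains at Prdm1 44164415 and Irf4 30839487 were 0.0454 and 0.579 points, and that at Prdm1 44080737, 34.0 points, passed that at Batf 87047303, 20.3 points. Clusters joined at 5 kb and 25 kb, and tiles shifted along the chromosome or without those with 3 or more p65 summits, were added after seeing the data. With these tiles, 0.113% to 0.169% held as many WT summits as the Prdm1 window. No paired analysis was possible because the lists hold no values per sample, and for the same reason no sample could be left out. Depth is unknown, and a site listed in 1 genotype only may lie just under the limit in the other.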

Other observations

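Strong IRF4 sites also lay beyond the edges of the Irf4 window. At 30695987 on chromosome 13, 44.0 kb below it, the WT score was 74.5 (rank 559 of 5630) and the paired p65KO score at 30695932 was 77.0 (rank 448 of 4312). At 31025060, 65.1 kb above it, the WT score was 110.1 (rank 231) and the paired p65KO score 92.9 (rank 308), so that this flanking site outscored all 5 WT summits of the window. Both were chosen after their values were seen, and no gene was assigned to them.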
